A study of Mus musculus with 12 samples.

Results

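GABA signaling and interneuron genes, a list of 26 gene symbols, were followed by RNA sequencing in 2 brain regions of male C57BL/6 mice, cortex and hippocampus, taken 3 months after cranial irradiation. The members were chosen by symbol alone, and all 26 were listed among the 23183 genes of each library. They comprise 9 GABA-A receptor subunits, 2 GABA-B receptor subunits, 5 genes of GABA synthesis, vesicle loading, uptake and breakdown, 2 genes of the inhibitory postsynapse, 2 chloride transporters, and 6 genes of interneurons that encode no neuropeptide. The mice were 7 weeks old at purchase and were given 1 week to acclimatize. The IR group received a single dose of 10 Gy to the whole brain, and the Con group was placed on the same platform for a sham exposure of 0 Gy. Each of the 4 groups, cortex Con, cortex IR, hippocampus Con and hippocampus IR, held 3 libraries, and no group carried a transgene. The labels do not say whether libraries came from separate mice or were pooled, so the p-values below measure the spread between libraries.

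GABA is the main inhibitory transmitter of the forebrain. It is made and released by interneurons, acts within milliseconds on GABA-A receptors, which are chloride channels built of 5 subunits, and acts more slowly on GABA-B receptors, which couple to G proteins. The subunits of a GABA-A receptor set where it sits and how long its channel remains open, and the chloride gradient, set by transporters, sets the direction of the current. The question put to these genes was how their levels differed between cortex and hippocampus in Con mice, and whether IR differed from Con within each tissue.

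Values are FPKM (fragments counted per kilobase of a gene's transcript and relative to each library's mapped total), which allow for transcript length, so that levels of different genes can be set side by side. Fold changes are differences of log2(FPKM + 1) from limma, which understates the change of genes near or below 1 FPKM, and adjusted p-values are Benjamini-Hochberg values over all genes that reached 0.5 FPKM in 3 or more libraries of the comparison. All 26 members passed this filter in every comparison. Summed FPKM ranged from 359773 to 393447 per library, and no 2 libraries held identical values. The depth in reads is unknown, but the steps between the lowest values put it at 1 to 1.05 times that of Con 1 in the cortex. In the hippocampus the estimates were 1, 1.02 and 1.07 times that of Con 1 in Con and 1.13, 1.09 and 1.09 times in IR. Every hippocampus IR library was thus put above every Con library there. The estimates are rough, since that of hippocampus IR 1 rests on a ratio shared by 38 of 896 genes. Column headers carry another ending for cortex than for hippocampus libraries, and what the ending stands for is not stated. If the tissues were processed separately, differences between them cannot be told apart from differences of processing.

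The labelled tissues were checked by marker genes. Dentate granule cell markers (9 genes) summed to 116 to 130 FPKM in the cortex libraries and to 233 to 289 FPKM in the hippocampus libraries. Excitatory neuron markers (10 genes) summed to 1444 to 1585 FPKM in the cortex and to 1904 to 2104 FPKM in the hippocampus, although 6 of the 10 were lower and 4 higher in hippocampus Con at an adjusted p under 0.05 in limma, with a median log2 fold change of -1.12. Of 10 striatal markers, whose neurons also make GABA, Drd2 reached at most 0.741 FPKM and Adora2a at most 1.12 FPKM in any cortex library. Thalamic markers (5 genes) summed to 23.9 to 27.3 FPKM in the cortex and to 39.7 to 60.3 FPKM in the hippocampus. Of the 5, 2 were higher and 1 lower in hippocampus Con at an adjusted p under 0.05 in limma. Calb2, which is also among the other interneuron genes below, had means of 7.91 FPKM in cortex Con and 27 FPKM in hippocampus Con. Rora went the other way, with 12.2 and 4.23 FPKM. The part of these markers in the regional differences below was not tested.

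Several members are neighbours in the genome. On chromosome 5 (GRCm38, the mm10 build) Gabrg1, Gabra2, Gabra4 and Gabrb1 lie in a cluster from 70751047 to 72149037, and Gabra4 and Gabrb1 point away from each other with 5′ ends that overlap by 196 bases on opposite strands. The labels name a directional library kit, which keeps the strand, but whether the counting used it is not stated. If it did not, reads from that overlap could be counted for either gene. On chromosome 7 Gabrg3 (56716465 to 57387188) and Gabra5 (57407672 to 57510059), both on the minus strand, are 20.5 kb apart, and on chromosome 2 Dlx1 and Dlx2 are 9.43 kb apart. Reln spans 460 kb of chromosome 5 (21884454 to 22344702, minus strand).

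Promoter windows of 250 bases before the start were found in the RefSeq table of GRCm38.p6 for 23 of the 26 members, in 31 windows. The windows below are those of the neighbours Gabra5 and Gabrg3, which differed in opposite directions between the tissues, and of Reln, which had the lowest p of all members in the comparison of IR with Con. Capitals mark motifs found on either strand, namely the CCAAT box, the GC box, whose letters are GGGCGG, and the site of EGR factors (GCGGGGGCG). EGR sites partly overlap a GC box in Reln. The windows are Gabra5 at chr7:57510060-57510309, Gabrg3 at chr7:57387216-57387465 and Reln at chr5:22344706-22344955, all on the minus strand and written 5′ to 3′.
Gabra5: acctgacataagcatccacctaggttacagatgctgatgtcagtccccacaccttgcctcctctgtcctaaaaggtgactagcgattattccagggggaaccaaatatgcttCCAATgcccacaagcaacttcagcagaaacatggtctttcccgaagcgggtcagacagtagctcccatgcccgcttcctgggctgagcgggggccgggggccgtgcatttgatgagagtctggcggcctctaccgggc
Gabrg3: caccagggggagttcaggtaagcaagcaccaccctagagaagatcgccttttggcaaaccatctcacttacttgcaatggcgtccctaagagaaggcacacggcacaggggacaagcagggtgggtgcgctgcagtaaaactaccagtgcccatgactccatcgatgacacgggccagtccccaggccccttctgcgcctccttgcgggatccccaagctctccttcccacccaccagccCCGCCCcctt
Reln: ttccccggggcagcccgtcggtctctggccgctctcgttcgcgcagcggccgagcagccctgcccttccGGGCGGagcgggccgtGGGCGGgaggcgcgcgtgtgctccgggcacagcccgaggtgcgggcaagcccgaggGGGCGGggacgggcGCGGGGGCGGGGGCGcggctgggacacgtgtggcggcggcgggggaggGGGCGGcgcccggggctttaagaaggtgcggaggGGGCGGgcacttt
The Gabra5 window held 1 CCAAT box and no GC box, and the Gabrg3 window held 1 GC box and no CCAAT box. The Reln window held 6 GC boxes and 2 overlapping EGR sites, and was the only member window with an EGR site, against 2.57% of all 32851 windows. GC boxes were found in 15 of the 31 member windows and in 32.7% of all windows, and CCAAT boxes in 12 member windows and in 33.8% of all windows. CpG pairs numbered 13 at the median of the member windows and 6 at the median of all windows, with 37 in that of Reln, 9 in that of Gabra5 and 9 in that of Gabrg3.

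**Figure D1:**
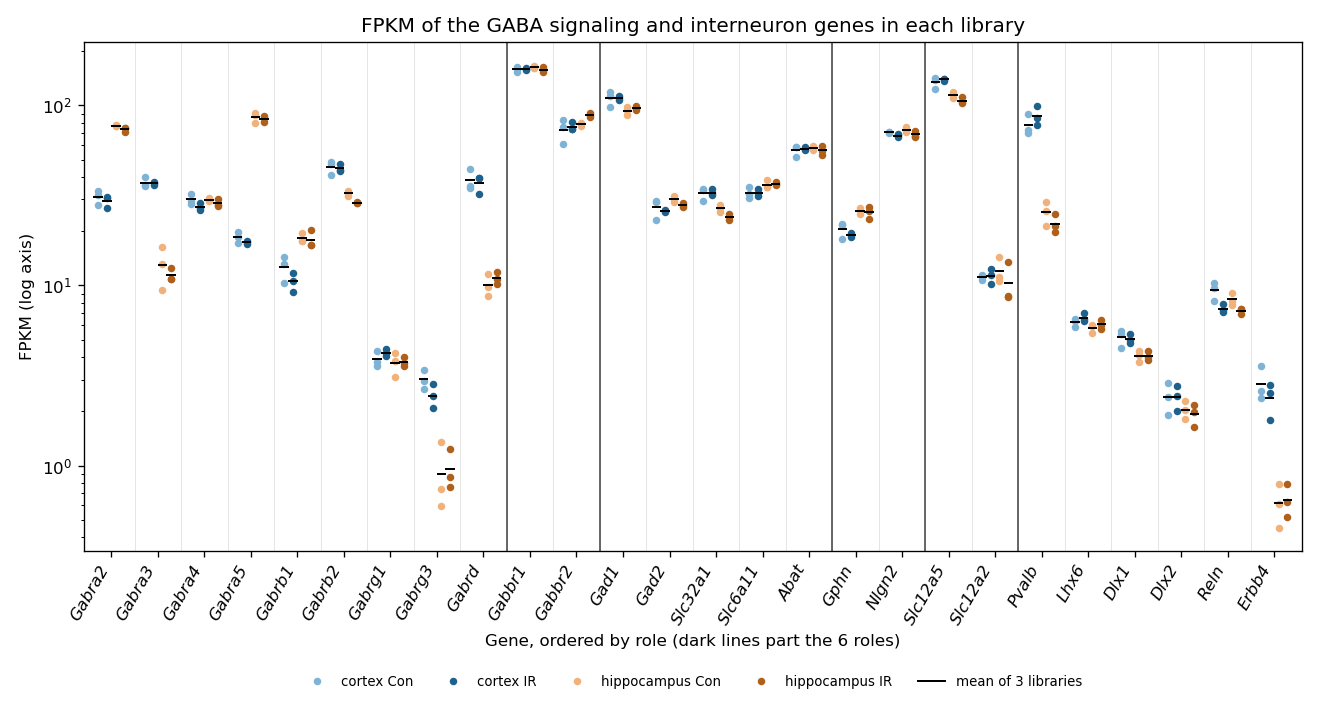
FPKM on a log axis of each of the 26 genes in the 12 libraries (points, coloured by group) with the mean of 3 libraries per group (black bars), ordered by role. Gabra2 and Gabra5 sit higher in the hippocampus and Gabra3, Gabrd, Gabrg3, Pvalb and Erbb4 sit higher in the cortex, whereas Con and IR lie close together within each tissue.

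The tissues differed in 7 of the 9 GABA-A receptor subunits and in Slc32a1, Gphn, Pvalb and Erbb4, whereas no member passed the adjusted test of IR against Con. Between hippocampus Con and cortex Con, 11 of the 26 members (42.3%) passed an adjusted p of 0.05 in limma, against 36.3% of the 14169 genes tested, 4 of them higher in the hippocampus (19% of all genes) and 7 lower (17.3% of all genes). A fold of at least 1.5 together with the adjusted p was met by 7 members (26.9%), against 13.7% of all genes. The 3 libraries of each tissue did not overlap in 14 members (53.8%), against 49.8% of all genes. Between IR and Con, no member passed an adjusted p of 0.05 or a fold of 1.5 in either tissue.

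**Figure D2:**
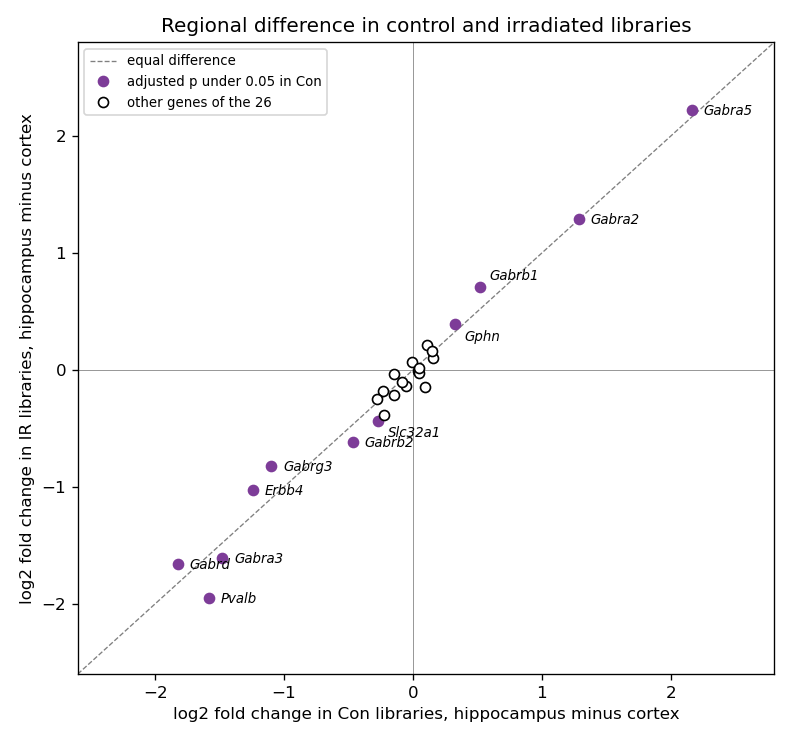
Log2 fold change between hippocampus and cortex in Con libraries (x axis) and in IR libraries (y axis) for the 26 genes, with filled points for the 11 genes at an adjusted p under 0.05 in Con. The dashed line marks equal differences, and all 11 filled points have the same sign on both axes.

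The IR libraries gave another measure of the regional difference. Their header endings differ by tissue as in Con, so a difference of processing could not be told apart here either. All 11 members called in Con were called again, in the same direction, between hippocampus IR and cortex IR, where 16 of 26 members and 46.7% of 14173 genes passed. The 5 members called only there, by limma at an adjusted p under 0.05, were Gabbr2 (log2 fold change 0.21) and Slc6a11 (0.16), higher in the hippocampus, and Gad1 (-0.18), Slc12a5 (-0.39) and Dlx1 (-0.25), lower. Their fold changes in Con were 0.11, 0.15, -0.23, -0.22 and -0.28, of the same sign.

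GABA-A receptor alpha subunits form part of the binding site for GABA and differ in where they are placed on the neuron. Gabra5, whose subunit is known for receptors outside synapses of hippocampal pyramidal cells, was at 17.1, 19.8 and 18.6 FPKM in cortex Con and at 79.9, 88 and 91.2 FPKM in hippocampus Con. The groups lay far apart, with a log2 fold change of 2.17 ± 0.084 (SE, adjusted p = 3.16e-07 from limma). Gabra2, found at synapses and at the start of the axon, was at 28, 33.4 and 31.8 FPKM in cortex Con and at 76.8, 77.6 and 76.8 FPKM in hippocampus Con, which is 1.29 ± 0.081 higher on the log2 scale (adjusted p = 3.35e-06 from limma). Gabra3 went the other way, from 40.1, 35.9 and 35.8 FPKM in cortex Con to 13.2, 9.45 and 16.4 FPKM in hippocampus Con (log2 fold change -1.48 ± 0.163, adjusted p = 0.00018 from limma). Gabra4, which pairs with the delta subunit in the forebrain, was at 30.1 ± 2.02 FPKM in cortex Con and 29.8 ± 0.601 FPKM in hippocampus Con (SD, n = 3), with a 95% interval of the difference from -0.18 to 0.16. In bulk tissue, fewer cells of a type and less RNA per cell cannot be told apart.

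The proportions of the alpha subunits differed between the tissues in every library. Of the summed FPKM of Gabra2, Gabra3, Gabra4 and Gabra5, Gabra5 took 14.5%, 16.8% and 16.1% in cortex Con and 40%, 42.8% and 42.7% in hippocampus Con. Gabra3 took 31.9% ± 1.96 in cortex Con and 6.29% ± 1.56 in hippocampus Con (SD, n = 3). The tissues did not overlap in the share of Gabra5, at p = 0.1 in a two-sided exact permutation test, the smallest that 3 against 3 libraries allow. With IR the share of Gabra5 was 15.6% ± 0.322 in the cortex (exact permutation p = 0.8) and 42.6% ± 0.25 in the hippocampus (exact permutation p = 0.8), so that the shares overlapped those of Con in both tissues.

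**Figure D3:**
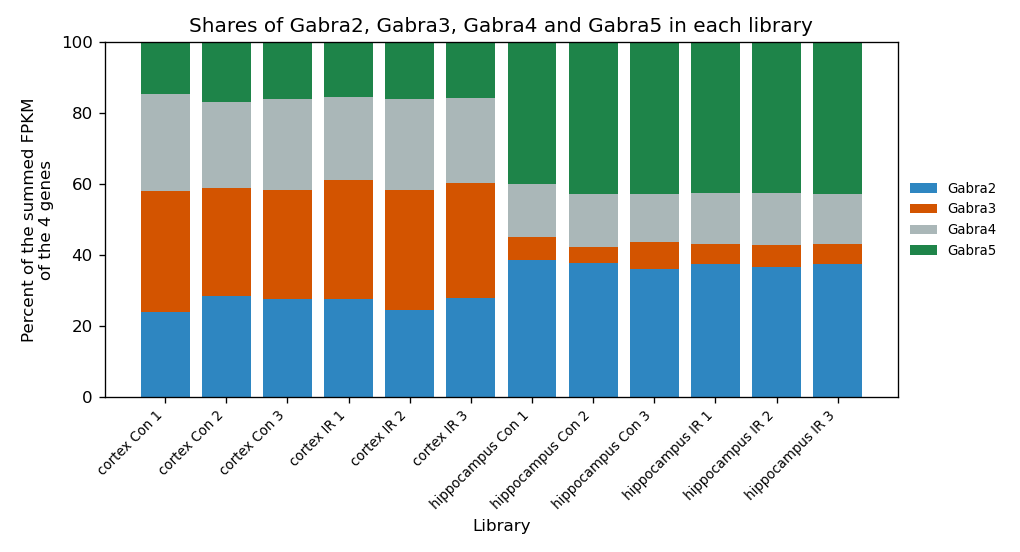
Percent of the summed FPKM of Gabra2, Gabra3, Gabra4 and Gabra5 that each gene takes in each of the 12 libraries (stacked bars from 0 to 100). Gabra5 takes 14.5% to 16.8% in the 6 cortex libraries and 40% to 42.9% in the 6 hippocampus libraries.

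Of the other GABA-A subunits, Gabrd and Gabrg3 were lower in the hippocampus. Gabrd encodes the delta subunit of receptors that lie outside synapses and carry tonic current, and it was at 44.6, 34.8 and 35.5 FPKM in cortex Con and at 9.84, 8.79 and 11.6 FPKM in hippocampus Con (log2 fold change -1.82 ± 0.12, adjusted p = 4.5e-06 from limma). Gabrg3, a gamma subunit, was at 2.95, 2.67 and 3.39 FPKM in cortex Con and at 0.594, 0.736 and 1.35 FPKM in hippocampus Con (log2 fold change -1.10 ± 0.151, adjusted p = 0.000428 from limma), so that it was lower in the tissue in which its neighbour Gabra5 was higher. With a pseudocount of 0.1 its log2 fold change was -1.71, and the log2 ratio of its means was -1.75. No library of the hippocampus reached the lowest cortex library in either gene.

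The beta subunits, which carry the other side of the GABA site, differed in opposite directions. Gabrb1 was at 10.4, 14.3 and 13.1 FPKM in cortex Con and at 17.7, 19.6 and 17.7 FPKM in hippocampus Con, 0.52 ± 0.111 higher on the log2 scale (adjusted p = 0.00567 from limma). Gabrb2 was at 48.2, 40.9 and 47.1 FPKM in cortex Con and at 32.7, 31.5 and 33.4 FPKM in hippocampus Con, 0.47 lower (log2 fold change -0.47 ± 0.082, adjusted p = 0.00189 from limma). Gabrg1, at 3.88 ± 0.407 FPKM in cortex Con and 3.71 ± 0.56 FPKM in hippocampus Con (SD, n = 3), did not pass the test. In all, 3 of the 9 subunits were higher in the hippocampus, 4 were lower and 2, Gabra4 and Gabrg1, did not pass, where 19% of all genes were higher and 17.3% lower.

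Set against irradiation, the same 9 subunits had lower means in IR in 8 of 9 in the cortex, against 49.5% of all genes, and in 6 of 9 in the hippocampus, against 52.7%. The cortex count depends on Con 1. Without that library the log2 fold changes of Gabra3 (0.039), Gabrb2 (0.023) and Gabrd (0.067) were positive. Fold changes of IR against Con at an unadjusted p under 0.05 were met by 1 of the 9 in each tissue, against 14.1% (cortex) and 13.9% (hippocampus) of all genes, and neither passed the adjustment. Gabra4 was at 32.4, 28.4 and 29.6 FPKM in cortex Con and at 26.1, 28.6 and 26.7 FPKM in cortex IR (log2 fold change -0.14 ± 0.064, unadjusted p = 0.0477, adjusted p = 0.346 from limma), and the groups overlapped. Its unadjusted p stayed under 0.05 in 8 of 15 alternative fits. The larger cortex differences were those of Gabrb1, at 12.6 ± 2.03 FPKM with Con and 10.5 ± 1.27 FPKM with IR (SD, n = 3, log2 fold change -0.23 ± 0.116, adjusted p = 0.408 from limma), and Gabrg3, at 3.01 ± 0.362 and 2.45 ± 0.365 FPKM (log2 fold change -0.22 ± 0.108, adjusted p = 0.4 from limma), both with overlap. Gabrb2 was at 32.7, 31.5 and 33.4 FPKM in hippocampus Con and at 28.7, 28.9 and 28.5 FPKM in hippocampus IR (log2 fold change -0.17 ± 0.056, unadjusted p = 0.0149, adjusted p = 0.291 from limma), with an unadjusted p under 0.05 in 12 of 15 alternative fits. All IR libraries lay below all Con libraries for Gabrb2 there, while in the cortex its means were 45.4 ± 3.92 FPKM with Con and 44.7 ± 2.42 FPKM with IR (SD, n = 3). The interaction of irradiation and tissue did not pass for Gabrb2 (-0.15 ± 0.093, unadjusted p = 0.125 from limma).

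GABA-B receptors need both subunits at the membrane, Gabbr1 to bind GABA and Gabbr2 to couple to the G protein. Gabbr1 had the highest level of the 26 in both tissues, with 158 ± 5.49 FPKM in cortex Con and 163 ± 3.04 FPKM in hippocampus Con (SD, n = 3). Gabbr2 was at 83.1, 61 and 75.9 FPKM in cortex Con and at 77.2, 78.5 and 79.5 FPKM in hippocampus Con, and neither subunit passed the test between the tissues. In hippocampus IR Gabbr2 was at 86.2, 88.3 and 90.3 FPKM, above every Con library, with a log2 fold change of 0.17 ± 0.058 (unadjusted p = 0.0191, adjusted p = 0.3 from limma), and the unadjusted p stayed under 0.05 in 10 of 15 alternative fits. The ratio of Gabbr1 to Gabbr2 was 2.08, 2.06 and 2.09 in hippocampus Con and 1.83, 1.73 and 1.8 in hippocampus IR, without overlap (two-sided exact permutation p = 0.1, the smallest possible). In the cortex the ratio was 1.96, 2.61 and 2.01 in Con and 2.18, 1.97 and 2.13 in IR (exact permutation p = 0.9), and the groups overlapped.

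Of the 5 genes of GABA synthesis and handling, Slc32a1 passed an adjusted p of 0.05 between the tissues and the other 4 did not. Gad1 and Gad2 encode the enzymes that make GABA from glutamate, the first found throughout the cell and the other mostly at terminals. Gad1 was at 119, 98.1 and 113 FPKM in cortex Con and at 94.1, 88.2 and 97.3 FPKM in hippocampus Con (log2 fold change -0.23 ± 0.091, unadjusted p = 0.0296, adjusted p = 0.0728 from limma), whereas Gad2 was at 29.5, 23.2 and 28.9 FPKM and at 30.4, 28.9 and 31.4 FPKM. The ratio of Gad1 to Gad2 was therefore lower in the hippocampus, at 4.05 ± 0.164 in cortex Con and 3.08 ± 0.028 in hippocampus Con (SD, n = 3) without overlap (two-sided exact permutation p = 0.1, the smallest possible). With IR the ratio in the hippocampus was 3.38, 3.52 and 3.44 against 3.1, 3.05 and 3.1 in Con, again without overlap (exact permutation p = 0.1), and in the cortex 4.23 ± 0.168 against 4.05 ± 0.164 with overlap (exact permutation p = 0.3). Gad2 itself was lower in every hippocampus IR library, at 28.6, 28 and 27.3 FPKM, without passing the test (log2 fold change -0.11, unadjusted p = 0.115 from limma).

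Slc32a1 encodes the transporter that loads GABA into vesicles. It was at 34.2, 29.5 and 34.1 FPKM in cortex Con and at 27.9, 25.4 and 27 FPKM in hippocampus Con (log2 fold change -0.27 ± 0.082, adjusted p = 0.0279 from limma). This call was lost without cortex Con 1, cortex Con 3 or hippocampus Con 2, where the adjusted p from limma rose to as much as 0.113. The log2 fold change stayed between -0.34 and -0.24 with any 1 library left out. In hippocampus IR Slc32a1 was at 24.8, 24.1 and 23.1 FPKM, below every Con library there (log2 fold change -0.15 ± 0.063, unadjusted p = 0.0441, adjusted p = 0.35 from limma), but its unadjusted p stayed under 0.05 in 6 of 15 alternative fits. In the cortex the means were 32.6 ± 2.66 FPKM with Con and 32.8 ± 1.3 FPKM with IR (SD, n = 3). Slc6a11, the GABA transporter of astrocytes, and Abat, the transaminase that breaks GABA down, passed none of the tests between Con groups or between IR and Con, with group means of 32.7 to 36.7 FPKM and of 56.2 to 58 FPKM.

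At the inhibitory postsynapse, Gphn encodes gephyrin, the scaffold that holds GABA-A receptors in place. It was at 21.7, 18 and 22 FPKM in cortex Con and at 26.9, 25.8 and 25.1 FPKM in hippocampus Con, 0.32 ± 0.089 higher on the log2 scale (adjusted p = 0.0189 from limma). Without hippocampus Con 2 the adjusted p was 0.0534. Nlgn2, the adhesion molecule of inhibitory synapses, was at 71.3, 71.1 and 70.1 FPKM in cortex Con and at 66.9, 68.1 and 68.9 FPKM in cortex IR. These groups did not overlap, but the log2 fold change was -0.06 with a 95% interval from -0.16 to 0.045. In the hippocampus Nlgn2 had means of 73.3 ± 2.17 FPKM with Con and 69 ± 2.67 FPKM with IR (SD, n = 3) with overlap.

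The chloride transporters set the gradient that GABA-A receptors use: Slc12a5 (KCC2) carries chloride out of mature neurons, and Slc12a2 (NKCC1) carries it in and is also abundant in the choroid plexus. Slc12a5 was at 142, 122 and 139 FPKM in cortex Con and at 115, 119 and 110 FPKM in hippocampus Con (log2 fold change -0.22 ± 0.085, unadjusted p = 0.0253, adjusted p = 0.0647 from limma), and in hippocampus IR it was at 103, 104 and 112 FPKM. Slc12a2 was at 11.1 ± 0.407 FPKM in cortex Con and 11.3 ± 1.04 FPKM in cortex IR (SD, n = 3). In the hippocampus it was at 11.1, 14.5 and 10.5 FPKM in Con and at 13.5, 8.79 and 8.66 FPKM in IR, with overlap (log2 fold change -0.22 ± 0.175, unadjusted p = 0.248 from limma).

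The spread of Slc12a2 in the hippocampus moved with Ttr, which encodes transthyretin and marks the choroid plexus. Ttr was at 16.7, 1005 and 55.6 FPKM in hippocampus Con and at 1582, 32.9 and 15.9 FPKM in hippocampus IR, so that Con 2 and IR 1, the libraries with the most Slc12a2, were also those with the most Ttr. The 7 choroid plexus markers, none of them at 0 in all libraries of a group, summed to 24.6 to 1072 FPKM in hippocampus Con and to 25.7 to 1659 FPKM in hippocampus IR, and to 3.79 to 30.6 FPKM in cortex Con and 16.4 to 442 FPKM in cortex IR. In the cortex IR 2 had the most Ttr, 426 FPKM, and the most Slc12a2, 12.3 FPKM. Without the 3 libraries above 100 FPKM of Ttr, a choice made after the values were seen, the hippocampus log2 fold change of Slc12a2 was -0.28 (95% interval -0.50 to -0.064, unadjusted p = 0.0196, adjusted p = 0.855 from limma, 2 libraries per group). In that fit 2 of 26 members and 5.59% of 13750 genes passed an unadjusted p of 0.05, and no member passed the adjusted p.

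The ratio of Slc12a5 to Slc12a2 was 13.3, 10.9 and 12.1 in cortex Con and 13.4, 11.4 and 12.3 in cortex IR (exact permutation p = 0.7). In the hippocampus it was 10.4, 8.24 and 10.5 in Con and 7.58, 11.9 and 12.9 in IR (exact permutation p = 0.6), with the lowest value in each group in the library rich in Ttr. Without these libraries 10.4 and 10.5 in Con stood against 11.9 and 12.9 in IR, a comparison of 2 libraries each that was not tested further. Hippocampus Con lay below cortex Con in every library (two-sided exact permutation p = 0.1, the smallest possible).

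**Figure D4:**
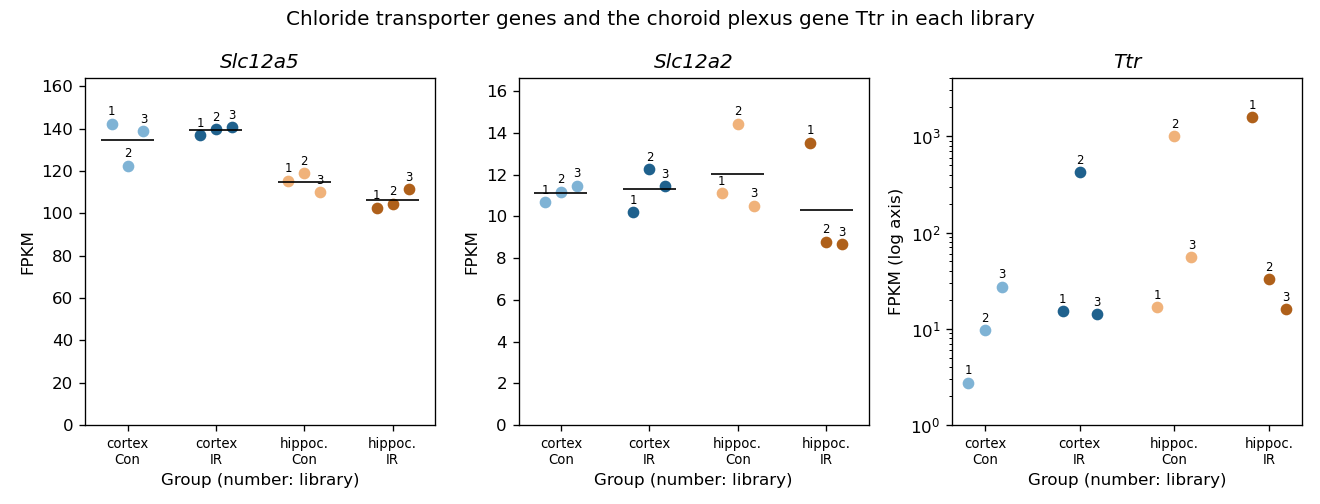
FPKM of Slc12a5 and Slc12a2 (linear axes from 0, bars at the group means) and of the choroid plexus gene Ttr (log axis) in the 12 libraries, numbered within each group. Hippocampus Con 2 and IR 1 are highest for both Slc12a2 (14.5 and 13.5 FPKM) and Ttr (1005 and 1582 FPKM).

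Among the interneuron genes, the calcium buffer Pvalb and the neuregulin receptor Erbb4, both typical of basket cells, had the lower levels in the hippocampus. Pvalb was at 90, 73.3 and 70.1 FPKM in cortex Con and at 29.1, 21.3 and 25.9 FPKM in hippocampus Con (log2 fold change -1.58 ± 0.128, adjusted p = 1.62e-05 from limma). Erbb4 was at 2.61, 2.37 and 3.55 FPKM in cortex Con and at 0.614, 0.452 and 0.788 FPKM in hippocampus Con (log2 fold change -1.24 ± 0.137, adjusted p = 0.00011 from limma). The size depends on the pseudocount. With a pseudocount of 0.1 the log2 fold change of Erbb4 was -2.04, and the log2 ratio of its means was -2.20. The transcription factors that set up the interneuron lineage differed less. Lhx6, of the cells from the medial ganglionic eminence, was at 6.23 ± 0.334 FPKM in cortex Con and 5.83 ± 0.321 FPKM in hippocampus Con (SD, n = 3) and did not pass the test, although most Pvalb cells carry it. Dlx1 was at 5.14 ± 0.579 and 4.06 ± 0.284 FPKM (unadjusted p = 0.0211, adjusted p = 0.0561 from limma) and Dlx2 at 2.4 ± 0.484 and 2.05 ± 0.23 FPKM (SD, n = 3).

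With IR, Pvalb was at 99.7, 85.4 and 78.2 FPKM in the cortex and at 19.9, 21.3 and 25 FPKM in the hippocampus. Its mean was higher than in Con in the cortex (log2 fold change 0.17 ± 0.108) and lower in the hippocampus (-0.19 ± 0.124), with overlap in each. The difference between these effects was the largest of the 26 members on the log2(FPKM + 1) scale. It was -0.37 with a 95% interval from -0.76 to 0.03, and did not pass (unadjusted p = 0.0671, adjusted p = 0.511 from limma). With a pseudocount of 0.1 it was -0.38, and that of Gabrg3 was larger in size, at 0.42.

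Reln, a secreted glycoprotein of some interneurons, was the member with the lowest p against irradiation. It was at 8.23, 9.7 and 10.3 FPKM in cortex Con and at 7.34, 7.09 and 7.85 FPKM in cortex IR, and at 9.1, 7.83 and 8.23 FPKM in hippocampus Con and 7.42, 7.42 and 6.91 FPKM in hippocampus IR. All IR libraries lay below all Con libraries in both tissues. The log2 fold changes were -0.30 ± 0.085 in the cortex (unadjusted p = 0.00553, adjusted p = 0.171 from limma) and -0.18 ± 0.077 in the hippocampus (unadjusted p = 0.0428, adjusted p = 0.349 from limma), so that neither passed the adjustment. The cortex value kept its unadjusted p under 0.05 in 15 of 15 alternative fits and the hippocampus value in 7 of 15. The difference between these effects did not pass (0.12 ± 0.117, unadjusted p = 0.338 from limma), and the difference between hippocampus Con and cortex Con did not pass either (adjusted p = 0.279 from limma).

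**Figure D5:**
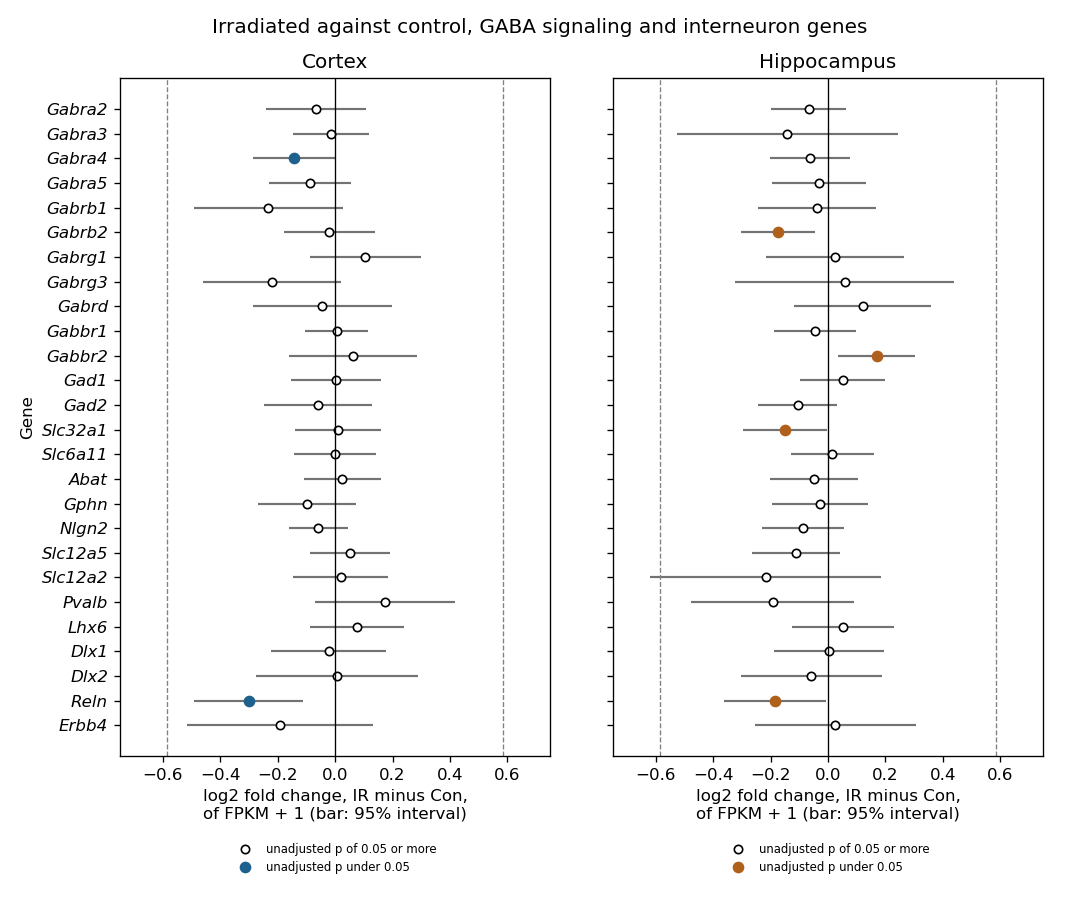
Log2 fold change of IR against Con (points) with 95% intervals (bars) for the 26 genes, cortex on the left and hippocampus on the right, filled where the unadjusted p is under 0.05. Dashed lines mark a 1.5-fold change, and on this log2(FPKM + 1) scale only the interval of Slc12a2 in the hippocampus, which reaches -0.62, crosses one.

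Counted over the list, IR against Con in the cortex gave 0 of 26 members at an adjusted p under 0.05 in limma (0.725% of 14065 genes passed) and 0 at a fold of 1.5 with an unadjusted p under 0.05 (0.483% of genes). An unadjusted p under 0.05 was met by 2 members, Gabra4 and Reln, against 14.1% of all genes, and 2 members, Nlgn2 and Reln, did not overlap, against 20.3% of all genes. In the hippocampus the adjusted p was again met by 0 of 26 (0.0285% of 14043 genes) and the fold by 0 (0.527% of genes). There 4 members, Gabrb2, Gabbr2, Slc32a1 and Reln, had an unadjusted p under 0.05 against 13.9% of all genes, and 6 did not overlap against 19.8% of all genes, of which Gabbr2 was higher (10.5% of all genes) and Gabra2, Gabrb2, Gad2, Slc32a1 and Reln were lower (9.36% of all genes) in IR. The interaction gave 0 of 26 at an adjusted p (0.0823% of 14577 genes) and 0 at an unadjusted p under 0.05 (10.3% of genes). In shares of the members, the hippocampus counts are 15.4% at an unadjusted p under 0.05 and 23.1% without overlap, with 19.2% lower without overlap against the 9.36% above, and the cortex counts are 7.69% for each. No p was computed for these shares.

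The intervals of the differences between IR and Con were read on the log2(FPKM + 1) scale, which shrinks low genes. In the cortex the 95% intervals of all 26 members lay within a 1.5-fold change in either direction, the widest bounds being -0.51 (Erbb4) and 0.42 (Pvalb) on the log2 scale. In the hippocampus those of 25 did, the exception being Slc12a2, and for the interaction those of 22 did, the exceptions being Gabrg3, Slc12a2, Pvalb and Erbb4. With a pseudocount of 0.1 the intervals within 1.5-fold were 24 in the cortex, with Erbb4 and Gabrg3 past it, 23 in the hippocampus, with Erbb4, Gabrg3 and Slc12a2 past it, and 20 for the interaction. The median log2 fold change of the members was -0.017 for cortex and -0.047 for hippocampus, against 0.0016 and -0.01 over all genes tested, and the median absolute value was 0.058 and 0.061 against 0.078 and 0.101.

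Single libraries stood out for the list. In the cortex Con 1 was the highest of 6 libraries for 11 of 26 members (16.6% of all genes) and Con 2 was the lowest for 10 (25.8% of all genes), so that the Con libraries spanned the IR libraries in many members. In the hippocampus Con 3 was the highest for 8 members (12.9% of all genes), which is 30.8% of the members. The lowest library there was Con 2 for 7 members, IR 1 for 7 and IR 3 for 6, that is 26.9%, 26.9% and 23.1% of the members against 16.1%, 24.8% and 11.5% of all genes.

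Other genes of the pathway gave the same counts of 0. Of 88 such genes in 5 lists, 86 were listed in the files, and the filter left 76 of them in cortex and 74 in hippocampus. None passed an adjusted p of 0.05 for IR against Con in limma, while an unadjusted p under 0.05 was met by 7 higher and 1 lower in the cortex and by 7 higher and 5 lower in the hippocampus, which is 10.5% and 16.2% of those tested. Over all genes 8.16% were higher and 5.94% lower in the cortex by that rule, and 7.06% were higher and 6.89% lower in the hippocampus. Between hippocampus Con and cortex Con 19 were higher and 18 lower at an adjusted p under 0.05, which is 50% of those tested against 36.3% of all genes (19% higher and 17.3% lower).

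Among the receptor partners and postsynaptic genes, 8 of 19 tested were higher in hippocampus Con and 2 lower at an adjusted p under 0.05, against 19% and 17.3% of all genes. Kctd12, an auxiliary subunit of the GABA-B receptor, was at 12.6 ± 0.848 FPKM in cortex Con and 49.2 ± 3.17 FPKM in hippocampus Con (SD, n = 3, log2 fold change 1.88, adjusted p = 3.88e-07 from limma), a difference that neither receptor subunit showed at that threshold. Mdga1, which binds Nlgn2 and limits its pairing with neurexin, was at 2.26 ± 0.589 and 14.7 ± 0.892 FPKM (log2 fold change 2.28, adjusted p = 1.84e-06 from limma). In hippocampus IR Mdga1 was at 18.2 ± 1.02 FPKM (log2 fold change 0.30, unadjusted p = 0.00323, adjusted p = 0.241 from limma).

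Among the other interneuron genes 7 of 30 tested were higher in hippocampus Con and 11 lower at an adjusted p under 0.05, against 19% and 17.3% of all genes. Lamp5, found in neurogliaform cells and in some excitatory neurons, was at 104 ± 21.7 FPKM in cortex Con and 15.6 ± 1.94 FPKM in hippocampus Con (SD, n = 3), and Satb1 was at 34.3 ± 2.44 and 13.4 ± 1.39 FPKM. Prox1, which is also in the list of dentate granule cell markers, went the other way, at 1.95 ± 0.272 and 15.9 ± 1.3 FPKM (adjusted p = 3.34e-07 from limma). Against irradiation 3 of the 30 were higher and 1 lower in the hippocampus at an unadjusted p under 0.05 (7.06% and 6.89% of all genes), among them Dlx6os1, a long noncoding RNA of the Dlx5 and Dlx6 locus, at 3.15 ± 0.0815 FPKM in Con and 4.29 ± 0.138 FPKM in IR (adjusted p = 0.225 from limma).

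Of 10 other genes of GABA transport and metabolism, 2 were higher in cortex IR at an unadjusted p under 0.05 (8.16% of all genes), with Glul, which makes glutamine in astrocytes, at 558 ± 31 FPKM with Con and 642 ± 17.3 FPKM with IR (SD, n = 3, adjusted p = 0.159 from limma). Slc6a13, a GABA transporter of the meninges and vessels, was at 1.66 ± 0.784 FPKM in hippocampus Con and 3.12 ± 0.281 FPKM in hippocampus IR (log2 fold change 0.67 ± 0.188, unadjusted p = 0.00737, adjusted p = 0.259 from limma). It thus met a fold of 1.5 with an unadjusted p under 0.05, as 0.527% of all genes did. Of 13 other chloride transporters and channels tested, 1 was higher in hippocampus Con and 2 lower at an adjusted p under 0.05 (19% and 17.3% of all genes), among them Slc4a3, a chloride and bicarbonate exchanger, at 47.4 ± 1.93 FPKM in cortex Con and 31.3 ± 1.9 FPKM in hippocampus Con. Perineuronal net genes, which coat many Pvalb cells, were higher in hippocampus Con in 5 of 7 and lower in none at an adjusted p under 0.05 (19% and 17.3% of all genes), with Tnr at 14.9 ± 1.48 and 22.3 ± 1.89 FPKM (SD, n = 3), whereas Pvalb itself was lower there. Against irradiation 2 of the 7, Hapln1 and Vcan, had lower means in hippocampus IR at an unadjusted p under 0.05 (6.89% of all genes).

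Summed levels of some markers of other cells differed between IR and Con. The 9 microglia markers summed to 168 to 181 FPKM in cortex Con and 135 to 172 FPKM in cortex IR, and to 161 to 196 FPKM in hippocampus Con and 130 to 145 FPKM in hippocampus IR, with 1 of 9 lower at an adjusted p under 0.05 in each tissue, where 0.725% and 0.0285% of all genes passed in either direction. The 8 endothelial markers summed to 84.9 to 98.8 and 103 to 117 FPKM in the cortex and to 72.2 to 81.2 and 87.7 to 91.9 FPKM in the hippocampus, in Con and IR respectively, with 4 of 8 and 2 of 8 higher at an unadjusted p under 0.05 (8.16% and 7.06% of all genes). The 8 oligodendrocyte markers summed to 1071 to 1335 FPKM in cortex Con and 1337 to 1616 FPKM in cortex IR, with 4 of 8 higher at an unadjusted p under 0.05 (8.16% of all genes). In the hippocampus they summed to 1100 to 1342 FPKM in Con and 1021 to 1287 FPKM in IR, with 3 of 8 lower at that threshold (6.89% of all genes), and none of the 8 passed an adjusted p of 0.05 in limma in either tissue. The 10 markers shared by all neurons summed to 3439 to 3698 FPKM in cortex Con, 3406 to 3727 FPKM in cortex IR, 3002 to 3584 FPKM in hippocampus Con and 2968 to 3174 FPKM in hippocampus IR. The part of these shifts in the values of the members was not tested.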

How the data were processed

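RNA of the cortex and the hippocampus (3 Con and 3 IR libraries each) was measured by RNA sequencing. Extraction is given as Trizol with total RNA in the labels, whereas the study's methods give poly(A) selection after the RNeasy Lipid Tissue kit. The authors trimmed reads with FASTX_Trimmer and BBMap, aligned them with TopHat (build mm10 in the submitters' processing notes), estimated FPKM with Cufflinks and applied a geometric normalization in edgeR before the FPKM were deposited. FPKM carry no read counts, so low genes are imprecise to an unknown degree.

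From these values, log2(FPKM + 1) was fitted per comparison with limma 3.58.1 in R 4.3.3 (trend and robust prior) for genes that reached 0.5 FPKM in 3 or more libraries of the fit. Ratios were tested with exact permutation tests (scipy 1.17.1). Fits were tested on simulated data. Members and gene lists were chosen with earlier results of these data known. The text names all 26 members and, of other lists, at most 3 genes per comparison, those with the lowest p among genes with an unadjusted p under 0.05 and no overlap of the groups. Marker genes that check a tissue or a library (Drd2, Adora2a, Ttr) were chosen after their values were seen. Alternatives were other filters, a pseudocount of 0.1, quantile or median ratio scaling, limma without trend, the library number as a block, a single fit of 12 libraries, the ratio of group means, and leaving out libraries. Positions are from GENCODE M21 and promoters from RefSeq (GRCm38.p6). Values of some single genes of the pathway are not reported here.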

Additional observations from a re-analysis of the deposited data

How the results depend on the processing

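None of the 26 members passed an adjusted p of 0.05 by limma for irradiation in cortex, for irradiation in hippocampus or for their interaction under any alternative run, and the regional calls lost were those of Slc32a1 and Gphn given with those genes. The counts moved as follows, and the cause was not tested. With no filter on low values the cortex count of genes past the adjusted threshold was 24, the members past the unadjusted threshold in cortex were 1 and the interaction count was 7. With limma fitted without the trend and robust options these were 22, 1 and 0. With at least 1 FPKM required in every library the hippocampus count was 2 and the interaction count 19. Gabrg3 and Erbb4 fell below 1 FPKM in hippocampus libraries, so their regional calls were not tested under that filter. With a pseudocount of 0.1 the genes past both the fold and the unadjusted threshold were 234 in cortex and 223 in hippocampus. Median ratio scaling left 2 members past the unadjusted threshold in hippocampus. A single fit of all 12 libraries gave 74 genes past the adjusted threshold in hippocampus. Without the libraries whose Ttr exceeded 100 FPKM, an alternative chosen after seeing the data, the adjusted counts were 29 in cortex, 0 in hippocampus and 0 for the interaction, the unadjusted counts were 769 in hippocampus and 844 for the interaction, and 2 members passed the unadjusted threshold in hippocampus. The regional calls of Slc32a1 and Gphn were lost there too.

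Libraries of the same number did not deviate together within a tissue. The correlations of their deviations from the group means were 0.096, -0.094 and 0.004 in cortex and -0.39, -0.19 and -0.066 in hippocampus, and 2 of 6 and 0 of 6 libraries correlated best with their own number, so the numbers were not used as a pairing. Across the tissues the correlations were 0.018, -0.032 and 0.19 in Con and -0.037, -0.055 and 0.15 in IR, with 3 of 6 and 2 of 6 libraries best with their own number. With the replicate block, 1 gene passed the adjusted threshold in hippocampus and 0 for the interaction, 0 members passed the unadjusted threshold in hippocampus against 4 without the block, and 2 members passed it in cortex, where Reln kept its call, Gabra4 lost it and Pvalb gained it. All 11 regional calls were also made with the block.

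Leaving out 1 library at a time gave 16 to 78 genes past the adjusted threshold in cortex, 0 to 880 in hippocampus and 0 to 480 for the interaction, and the values of 880 and 480 both came without hippocampus Con replicate 3. Genes past the unadjusted threshold ranged from 1215 to 2108 in cortex, 1161 to 3613 in hippocampus and 1074 to 2882 for the interaction, and genes past the fold and unadjusted thresholds ranged from 52 to 217 in hippocampus. Members past the unadjusted threshold ranged from 1 to 5 in cortex, with 5 reached without cortex Con replicate 2 and 1 without cortex Con replicate 3. In hippocampus they ranged from 0 to 6, with 0 reached without IR replicate 3 and 6 without Con replicate 2, and for the interaction from 0 to 2.

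Signs that changed belonged to differences that did not pass a threshold. Without the libraries of high Ttr the log2 difference was 0.0048 for Gabrb2, -0.033 for Slc6a11, -0.036 for Slc12a2 and -0.069 for Dlx2 in cortex. In hippocampus it was then 0.0098 for Gabra5, 0.056 for Gabrb1, -0.044 for Gabrg1, -0.017 for Gabrd, 0.028 for Gphn and -0.11 for Erbb4. The interaction was then 0.0063 for Dlx2 and -0.052 for Erbb4, and the regional difference 0.039 for Gabrg1 and -0.035 for Slc12a2. Median ratio scaling gave -0.00016 for Gabbr1, -0.00274 for Gad1 and -0.00458 for Slc6a11 in cortex and an interaction of 0.016 for Gabra2. Quantile scaling gave -0.023 for Gad1, -0.0052 for Slc32a1 and -0.015 for Slc6a11 in cortex, and 0.021 for Gabra5, 0.034 for Gabbr1, 0.025 for Abat and -0.019 for Dlx1 in hippocampus. Its interactions were 0.079 for Gabra2, 0.031 for Gabbr1, 0.0022 for Gad2, 0.014 for Abat and 0.025 for Nlgn2, and its regional difference was -0.018 for Abat. The ratio of group means gave -0.0018 for Gad1 and -0.000974 for Slc6a11 in cortex, and the pseudocount of 0.1 an interaction of 0.000731 for Gabra2. Taking the IR in place of the Con libraries, also chosen after seeing the data, gave regional differences of 0.069 for Gabra4, -0.0090 for Gabbr1, -0.029 for Abat and -0.14 for Slc12a2.

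Leaving out 1 library at a time, the cortex log2 differences that changed sign ranged from -0.042 to 0.039 for Gabra3, -0.092 to 0.023 for Gabrb2, -0.11 to 0.067 for Gabrd, -0.022 to 0.027 for Gabbr1, -0.063 to 0.16 for Gabbr2, -0.077 to 0.060 for Gad1, -0.16 to 0.0017 for Gad2, -0.058 to 0.046 for Slc32a1, -0.043 to 0.053 for Slc6a11 and -0.033 to 0.057 for Abat. They ranged from -0.015 to 0.093 for Slc12a5, -0.036 to 0.086 for Slc12a2, -0.10 to 0.028 for Dlx1 and -0.10 to 0.11 for Dlx2. The cortex differences of log2 ratios ranged from -0.041 to 0.10 for Slc12a5 to Slc12a2 and from -0.13 to 0.073 for Gabbr1 to Gabbr2, and that of the Gabra5 share from -0.088 to 0.037. In hippocampus the ranges were -0.34 to 0.029 for Gabra3, -0.087 to 0.0071 for Gabra5, -0.13 to 0.010 for Gabrb1, -0.070 to 0.10 for Gabrg1, -0.056 to 0.22 for Gabrg3, -0.0074 to 0.058 for Slc6a11, -0.073 to 0.032 for Gphn, -0.042 to 0.038 for Dlx1, -0.12 to 0.014 for Dlx2 and -0.049 to 0.10 for Erbb4. The hippocampus difference ranged from -0.021 to 0.36 for the log2 ratio of Slc12a5 to Slc12a2 and from -0.0073 to 0.076 for the Gabra5 share. Interactions ranged from -0.063 to 0.069 for Gabra2, -0.32 to 0.043 for Gabra3, -0.00042 to 0.11 for Gabra5, -0.0093 to 0.13 for Gad1, -0.11 to 0.058 for Gad2, -0.038 to 0.059 for Slc6a11, -0.063 to 0.016 for Lhx6, -0.025 to 0.11 for Dlx1 and -0.16 to 0.043 for Dlx2. Regional differences ranged from -0.050 to 0.040 for Gabra4, -0.13 to 0.039 for Gabrg1, -0.019 to 0.20 for Gabbr2, -0.014 to 0.075 for Abat and -0.035 to 0.18 for Slc12a2, and that of the log2 ratio of Gabbr1 to Gabbr2 from -0.14 to 0.066.

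The values carry no read counts, so the depth behind each was known only as the depth relative to Con 1 of each tissue, and 3 libraries a group limited the precision.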
